A study of Rattus norvegicus with 8 samples.

Results

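The transcriptome of PEG-fused peripheral nerve allografts (PNAs) was set against that of unoperated sciatic nerve (Unop), to find which genes of normal nerve were changed inside a graft at 14 days PO (postoperatively). A gene entered the comparison when its normalized read count was 10 or more in at least 2 of the 5 libraries compared, and 16022 of 32545 genes did. Bulk RNA-seq covered 8 libraries: 3 PEG-fused PNAs, 2 Unop nerves and 3 negative control (NC) PNAs, the last of which were repaired with sutures but received no PEG. Every animal was a female outbred Sprague Dawley rat (Envigo) 3 to 6 months old. For a PEG-fused PNA, a piece of host sciatic nerve was removed and replaced by a sciatic nerve segment of another outbred rat, with neither tissue matching nor immunosuppression. Its cut ends were treated with hypotonic calcium-free saline, methylene blue, neurorrhaphy (microsutures) and polyethylene glycol (PEG), a polymer applied to fuse the membranes of apposed axons, and then with isotonic saline that holds calcium. NC PNAs shared the donor tissue, both salines, the methylene blue and the sutures. Unop nerves had no operation, so surgery, grafting between unrelated animals, PEG and time after injury cannot be told apart in the comparison of PEG-fused PNAs with Unop nerves. A graft can hold donor cells and cells of the host, which the counts do not tell apart. The libraries came from separate animals, with 2 animals in the Unop group.

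In a healthy peripheral nerve, Schwann cells wrap axons in myelin and make the proteins and lipids of the sheath, while the perineurium and the endothelium keep the endoneurium apart from blood. When an axon degenerates, its Schwann cells leave the myelinating state, divide and take up a repair program of trophic factors. Macrophages then enter and digest the myelin, and fibroblasts lay down matrix. In bulk tissue, fewer cells of a type and less RNA per cell cannot be told apart, which applies to each result below.

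Each library held from 32472925 to 39959620 reads on genes. Values are normalized read counts, in which the reads of each gene were divided by a size factor of the library. They were compared by limma on log2(normalized read count + 1), a scale that understates the change of genes with few reads. A gene was called a DEG (differentially expressed gene) when its adjusted p (Benjamini-Hochberg) was under 0.05 and its log2 fold change exceeded 1 in either direction. By this rule, 2673 genes (16.7% of those tested) were higher in PEG-fused PNAs and 2567 (16.0%) were lower, which is 32.7% of genes in either direction. A list count near these shares is not a result about its list, which applies to each list below. The median log2 fold change over all genes tested was -0.003. The falls reached further than the rises: 184 DEGs lay below a log2 fold change of -5, and 65 lay above 5. Without overlap between the 3 PEG-fused and 2 Unop values were 75.4% of all genes tested. The Unop nerves differed from each other more than 2-fold in 199 of 12009 genes with a mean count of at least 100, and 165 of these were higher in Unop 1.

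The 10 largest falls were led by Cnmd. This gene, which encodes the anti-angiogenic matrix glycoprotein chondromodulin, stood at 15215 and 19211 in the Unop nerves and at 8.34, 13.1 and 20.6 in PEG-fused PNAs (log2 fold change -10.24 ± 1.08 (SE), limma adjusted p = 8.81e-05). Ncmap, a protein of non-compact myelin, fell from 21378 and 27177 to 35.2, 13.1 and 47.8 (log2 fold change -9.69 ± 1.39 (SE), limma adjusted p = 0.000474). Ces1d, a carboxylesterase with near-identical neighbours between which reads can be split, fell from 11957 and 6135 to 13.0, 9.35 and 16.9 (log2 fold change -9.29 ± 0.58 (SE), limma adjusted p = 6.09e-06). In each of these genes, the lowest Unop nerve lay more than 100-fold above the highest PEG-fused PNA. Pck1, an enzyme of glyceroneogenesis in fat, was at 4569.7 and 4027 and then at 7.42, 2.80 and 11.3 (log2 fold change -9.20 ± 0.45 (SE), limma adjusted p = 2.10e-06). Lep, the adipocyte hormone leptin, was at 3209 and 1305 and 2.78, 1.87 and 3.75 in the same order (log2 fold change -9.10 ± 0.44 (SE), limma adjusted p = 2.01e-06), and the lipogenic gene Thrsp had a log2 fold change of -8.88 ± 0.55 (SE). The other large falls on the log2 scale were LOC688613 (-9.19) and the calmodulin-like gene Calml3 (-8.87). Dcdc2, a gene of the doublecortin family, had a single read in the 3 PEG-fused PNAs together, and its count was 2481-fold (95% counting interval 444 to 98049.5) higher in Unop nerves. Oxtr, the oxytocin receptor, had 2 reads in PEG-fused PNAs and was 1258-fold (95% counting interval 348 to 10398) higher in Unop nerves.

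The 10 largest rises were led by Lrrc15, a membrane protein known from activated fibroblasts, at 5.37 and 0 in the Unop nerves and 595, 1268 and 812 in PEG-fused PNAs (log2 fold change 8.40 ± 0.73 (SE), limma adjusted p = 2.97e-05). Mmp8, a collagenase of neutrophils and fibroblasts, rose from 30.05 and 6.25 to 2126, 1203 and 1594 (log2 fold change 6.73 ± 0.70 (SE), limma adjusted p = 7.69e-05). Hmga2, a chromatin protein of embryonic and dividing cells, rose from 4.29 and 1.25 to 313, 416 and 319 (log2 fold change 6.65 ± 0.55 (SE), limma adjusted p = 2.46e-05). The values of Apoc4, an apolipoprotein, were 22.5 and 0 and 539, 677 and 500.0 (log2 fold change 6.87 ± 1.24 (SE), limma adjusted p = 0.00165). In all 4 genes each PEG-fused PNA stood far above both Unop nerves, and Apoc4 and Lrrc15 had reads in Unop 1 but not in Unop 2. Rgs8, a regulator of G protein signalling, had a log2 fold change of 6.61 ± 0.65 (SE), and the unnamed gene AABR07068285.2 had 6.65 (standard error 0.59). Both Unop nerves had 0 reads of the potassium channel subunit Kcng1 and of the olfactory receptor gene Olr1684. With each Unop library set to a floor of 3 counts, Kcng1 was at least 40.6-fold higher in the grafts and Olr1684, whose reads can be shared with other olfactory receptor genes, at least 38.8-fold. The tetraspanin gene Tspan10, with 3 reads in Unop nerves, was 141-fold (95% counting interval 48.1 to 686) higher. LOC290595, also with 3 reads in Unop nerves, was 268-fold (95% counting interval 91.5 to 1301) higher, and PEG 2 (1171) stood far above PEG 1 (105) and PEG 3 (119).

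**Figure D1:**
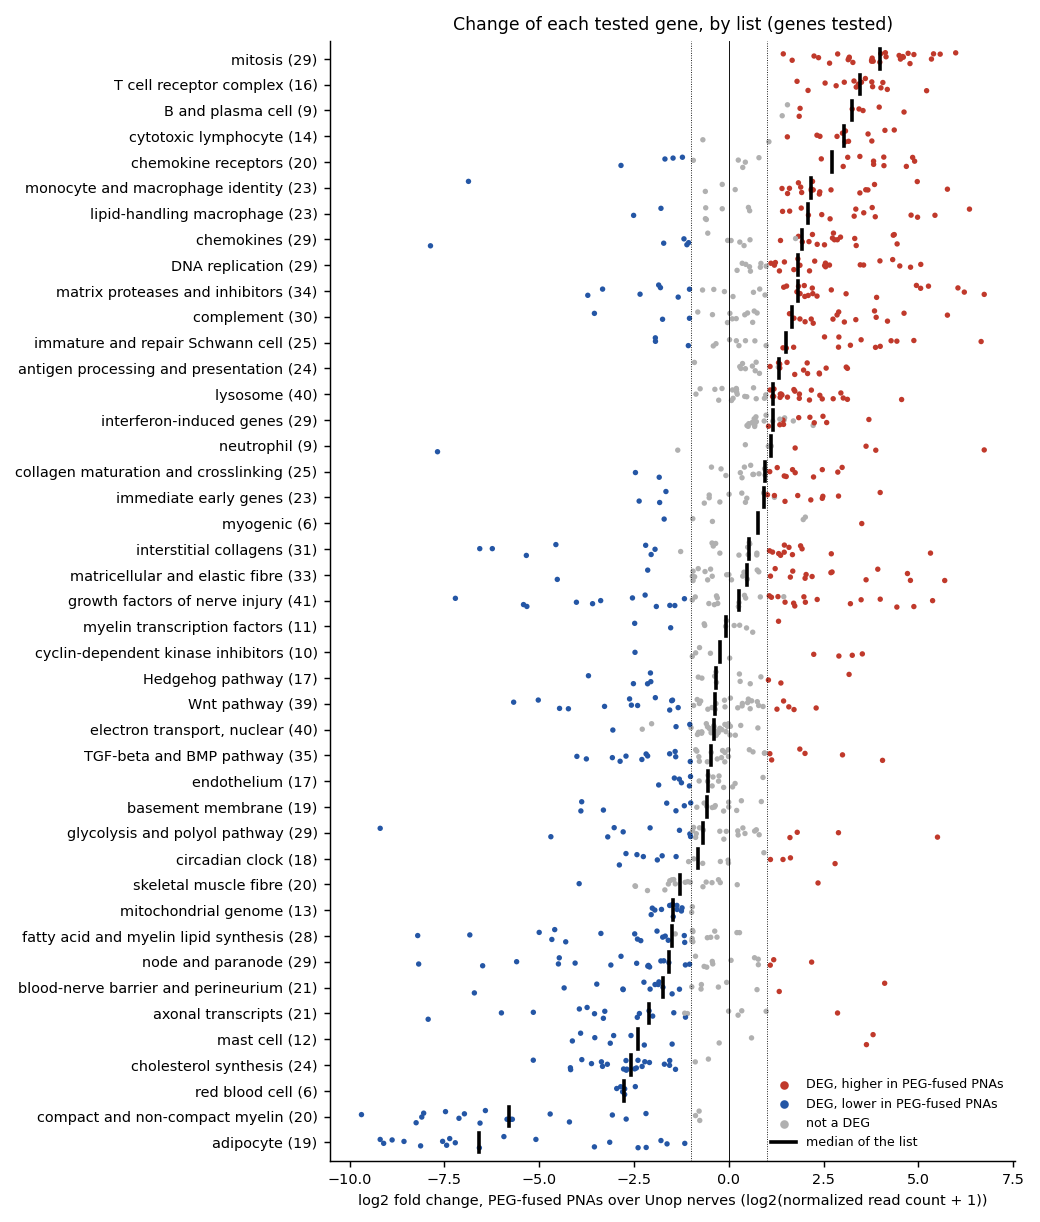
Log2 fold change (PEG-fused PNAs relative to Unop nerves) on the horizontal axis for each tested gene of 43 lists (the number tested stands in brackets), with DEGs in red and blue, other genes in grey, a black bar at the median of each list and dotted lines at 1 and -1. Lists of adipocyte and myelin genes lie farthest to the left, with medians of -6.58 and -5.80, and the mitosis list lies farthest to the right, with a median of 3.98.

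Transcripts of the myelin sheath were lower throughout. Of 21 genes of compact and non-compact myelin, 20 were tested and 1 had too few reads. In PEG-fused PNAs, 17 of the 20 (85.0%) were lower, against 16.0% of all genes tested, while none was higher. Their median log2 fold change was -5.80, and the other 3 tested genes also had negative values. Together, the list held 8.47% ± 1.39 (SD, n = 2) of the reads of Unop nerves and 0.267% ± 0.016 (SD, n = 3) of the reads of PEG-fused PNAs. Prx (periaxin), which links the sheath to its basal lamina through Drp2, went from 114029 and 154247 in the Unop nerves to 439, 363 and 784 in PEG-fused PNAs (log2 fold change -8.05 ± 0.70 (SE), limma adjusted p = 3.04e-05). Drp2 itself went from 118076 and 172406 to 494, 443 and 470.0 (log2 fold change -8.25 ± 0.51 (SE), limma adjusted p = 5.91e-06). Mal, a proteolipid of compact myelin, went from 92909 and 118381 to 357, 321 and 486 (log2 fold change -8.10 ± 0.64 (SE), limma adjusted p = 1.91e-05). In these 3 genes, no graft came near a Unop nerve. Cldn19, the claudin of Schwann cell tight junctions, fell from 18843 and 25081 to 131, 108.4 and 265 (log2 fold change -7.12 ± 0.86 (SE), limma adjusted p = 0.000182). Mag, an adhesion protein of the periaxonal membrane, fell from 3956 and 3879 to 11.1, 13.1 and 61.9 (log2 fold change -7.47 ± 1.25 (SE), limma adjusted p = 0.00109), and PEG 3 was the highest of the 3 PEG-fused PNAs in Mag, Prx and Cldn19. Dusp15, a phosphatase of myelinating cells, had a log2 fold change of -6.97 ± 0.35 (SE). Against NC PNAs, 1 gene of the list was higher in PEG-fused PNAs and none was lower, where 4.56% and 6.24% of all genes tested were called in these directions. These shares also apply to each list count against NC PNAs below.

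Of 11 transcription factors of myelination tested, 2 (18.2%) were lower and 1 (9.09%) was higher, against 16.0% and 16.7% of all genes tested, with a median log2 fold change of -0.06. Egr2, which switches on the myelin genes, was at 3271 and 4398 in the Unop nerves and 514, 696 and 868 in PEG-fused PNAs (log2 fold change -2.48 ± 0.23 (SE), limma adjusted p = 4.29e-05), and the groups did not overlap. Its co-factor Nab1 fell from 4972 and 5639.6 to 1828, 1830.5 and 1824 (log2 fold change -1.53 ± 0.09 (SE), limma adjusted p = 5.16e-06). Pou3f1 (Oct-6), a factor of the promyelinating stage, was at 144 and 97.6 in the Unop nerves and 153, 119.7 and 241 in PEG-fused PNAs, which overlapped (log2 fold change 0.47 ± 0.55 (SE), limma adjusted p = 0.491, 95% interval -0.80 to 1.73). Myrf, the factor best known for central myelin, rose from 202 and 234 to 501, 686 and 459 (log2 fold change 1.31 ± 0.25 (SE), limma adjusted p = 0.00241).

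Genes of the immature and repair Schwann cell were mostly higher. Of 27 genes, 25 passed the filter, 14 (56.0%) were higher against 16.7% of all genes tested and 3 were lower, with a median log2 fold change of 1.52. Ngfr, the p75 neurotrophin receptor of non-myelinating and repair Schwann cells, rose from 1139.7 and 713 in the Unop nerves to 15448, 20293 and 17141 in PEG-fused PNAs (log2 fold change 4.28 ± 0.20 (SE), limma adjusted p = 1.94e-06). Runx2, a transcription factor of injured Schwann cells, rose from 159.9 and 138 to 2154, 2419 and 1987 (log2 fold change 3.87 ± 0.23 (SE), limma adjusted p = 5.40e-06). Sox2, which holds Schwann cells in an immature state, rose from 437 and 298 to 1008, 1067 and 852 (log2 fold change 1.43 ± 0.19 (SE), limma adjusted p = 0.000278). Among the secreted factors of this state, Btc (betacellulin) rose from 152 and 92.6 to 2585, 3159.9 and 2109 (log2 fold change 4.43 ± 0.23 (SE), limma adjusted p = 2.43e-06). Lif, a cytokine of the interleukin 6 family, rose from 67.6 and 53.8 to 667, 799 and 608 (log2 fold change 3.49 ± 0.19 (SE), limma adjusted p = 3.30e-06). Bdnf, a neurotrophin, rose from 3.22 and 1.25 to 84.3, 147 and 58.2 (log2 fold change 4.88 ± 0.46 (SE), limma adjusted p = 4.65e-05). In these 6 genes every PEG-fused PNA exceeded both Unop nerves. Gdnf, a survival factor of motor neurons, had 2 reads in Unop nerves and was 29.9-fold (95% counting interval 8.08 to 249.9) higher in PEG-fused PNAs, where its values were 35.2, 44.9 and 23.5. All 3 grafts thus held low but measurable Gdnf. Shh, which is switched on in Schwann cells after injury, was at 413 and 366 in the Unop nerves, 348, 214 and 390.2 in PEG-fused PNAs and 64.3, 28.0 and 37.6 in NC PNAs. Its log2 fold change against Unop nerves was -0.34 (95% interval -1.19 to 0.51, limma adjusted p = 0.456), and against NC PNAs it was 2.88 (limma adjusted p = 0.00102). Gfap, an intermediate filament of non-myelinating Schwann cells, fell from 3154 and 2575 to 760.0, 596 and 912 (log2 fold change -1.94 ± 0.31 (SE), limma adjusted p = 0.00089).

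The molecules that organise the node of Ranvier and its flanks were lower in the main. Of 29 tested, 17 (58.6%) were lower and 3 were higher, with a median of -1.58. The juxtaparanodal potassium channels showed the largest falls: Kcna1 went from 776 and 1299.5 to 6.49, 1.87 and 0.938 (log2 fold change -8.18 ± 1.30 (SE), limma adjusted p = 0.000849) and Kcna2 from 433 and 933 to 5.56, 2.80 and 13.1 (log2 fold change -6.49 ± 0.89 (SE), limma adjusted p = 0.00038). Scn7a, a sodium channel of Schwann cells, fell from 25575 and 42287 to 1413, 1256 and 1747 (log2 fold change -4.49 ± 0.56 (SE), limma adjusted p = 0.000228). Among the adhesion molecules of the internode, Cadm4 fell from 15084 and 16746 to 3556, 3398 and 3901 (log2 fold change -2.14 ± 0.19 (SE), limma adjusted p = 3.02e-05). Its relatives Cadm3 and Cadm2 had log2 fold changes of -5.60 and -4.05. Gldn (gliomedin), which gathers sodium channels at the node, fell from 5469 and 7070.4 to 613, 464 and 1306 (log2 fold change -3.11 ± 0.66 (SE), limma adjusted p = 0.00367), and PEG 3 held the highest of its PEG-fused values. Nfasc, whose glial form anchors the paranodal junction, fell from 4750.0 and 6353 to 263, 247 and 231 (log2 fold change -4.47 ± 0.30 (SE), limma adjusted p = 8.69e-06). Nrcam, a partner of gliomedin at the node, was not a DEG, with 2044 and 3168 in the Unop nerves and 3978, 4103 and 4131 in PEG-fused PNAs (log2 fold change 0.68 ± 0.17 (SE), limma adjusted p = 0.0095). In NC PNAs Nrcam was at 837, 864 and 1017, below each Unop nerve, and its log2 fold change over NC PNAs was 2.17 (limma adjusted p = 0.000349).

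Cholesterol synthesis genes were lower almost without exception. Of 25 genes of the pathway, 24 passed the filter, and of these 22 (91.7%) were lower in PEG-fused PNAs and none was higher, with a median log2 fold change of -2.59. The other 2 tested genes had negative values as well. Hmgcs1, which makes the precursor of mevalonate, was at 59138 and 64503 in the Unop nerves and 1614, 1899.7 and 1689 in PEG-fused PNAs (log2 fold change -5.16 ± 0.23 (SE), limma adjusted p = 1.55e-06). Idi1, the isomerase of isoprenoid units, fell from 9065 and 9083 to 493, 534 and 481 (log2 fold change -4.17 ± 0.20 (SE), limma adjusted p = 1.93e-06). At both of these steps the 3 grafts lay close together, far below both Unop nerves. Fdft1 (squalene synthase) had -4.18 and Msmo1, a methylsterol oxidase, had -3.62 as log2 fold changes. Sqle (squalene epoxidase) fell from 4549 and 4882 to 742, 985 and 977 (log2 fold change -2.40 ± 0.17 (SE), limma adjusted p = 1.03e-05). By limma, none of the 24 was called against NC PNAs in either direction, and at an unadjusted p under 0.05 with no fold change threshold 4 were higher and 6 were lower than in NC PNAs.

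Promoters are shown for Hmgcs1 and Idi1, genes of the cholesterol pathway with large falls, over 300 bases 5′ to 3′, from 250 before the annotated transcription start to 50 after it (RefSeq, build GRCr8). Capitals mark CCAAT boxes on either strand (CCAAT or ATTGG), which are known to lie beside sterol response elements. The windows lie at chr2:53382054-53382353 on the plus strand and at chr17:66547475-66547774 on the minus strand.
Hmgcs1: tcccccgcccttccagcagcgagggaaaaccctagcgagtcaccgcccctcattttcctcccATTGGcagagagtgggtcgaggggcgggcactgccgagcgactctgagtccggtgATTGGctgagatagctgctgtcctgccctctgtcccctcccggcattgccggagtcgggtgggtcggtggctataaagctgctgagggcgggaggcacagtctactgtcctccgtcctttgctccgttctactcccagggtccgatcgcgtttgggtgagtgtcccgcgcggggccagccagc
Idi1: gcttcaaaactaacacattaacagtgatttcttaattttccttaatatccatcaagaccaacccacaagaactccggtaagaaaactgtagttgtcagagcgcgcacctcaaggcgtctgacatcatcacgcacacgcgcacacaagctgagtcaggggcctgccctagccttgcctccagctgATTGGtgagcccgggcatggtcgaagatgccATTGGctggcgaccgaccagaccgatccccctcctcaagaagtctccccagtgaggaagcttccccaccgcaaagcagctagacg
CCAAT was found in 14 of the 17 cholesterol genes of the list with a promoter window (82.4%) and in 37.5% of all 33469 windows. The sterol response element, searched as TCACCCCAC on both strands, was in none of the 17 and in 0.484% of all windows. A match this rare would seldom be met among 17 genes, so its absence does not show that these promoters lack the element. Other spellings of the element were not searched.

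Enzymes of fatty acid and myelin lipid synthesis were lower or not called. Of 28 tested, 16 (57.1%) were lower and none was higher, with a median of -1.51. Fa2h, which hydroxylates the fatty acids of myelin galactolipids, fell from 6004 and 6439 to 20.4, 13.1 and 30.02 (log2 fold change -8.21 ± 0.75 (SE), limma adjusted p = 4.07e-05). Ugt8, the enzyme that makes galactosylceramide, fell from 44242 and 59962 to 2058, 2103 and 1920.2 (log2 fold change -4.67 ± 0.48 (SE), limma adjusted p = 7.85e-05). Gal3st1, which sulfates that lipid to sulfatide, fell from 915 and 1224 to 171, 180.4 and 217 (log2 fold change -2.48 ± 0.40 (SE), limma adjusted p = 0.000844). Fasn (fatty acid synthase) fell from 9965 and 9873 to 2557, 2762 and 2687 (log2 fold change -1.89 ± 0.11 (SE), limma adjusted p = 3.98e-06). The grafts lay below both Unop nerves in all 4 enzymes. Elovl7 and Elovl6, which lengthen fatty acids, had log2 fold changes of -6.83 and -4.30, and Acsl1, which activates them, had -3.37. Sgpp2, a phosphatase of sphingosine phosphate, had -5.002. Scd (stearoyl-CoA desaturase) was at 28563 and 3837 in the Unop nerves, which differ from each other, and at 479, 473 and 358 in PEG-fused PNAs (log2 fold change -4.59 ± 0.86 (SE), limma adjusted p = 0.00202).

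**Figure D2:**
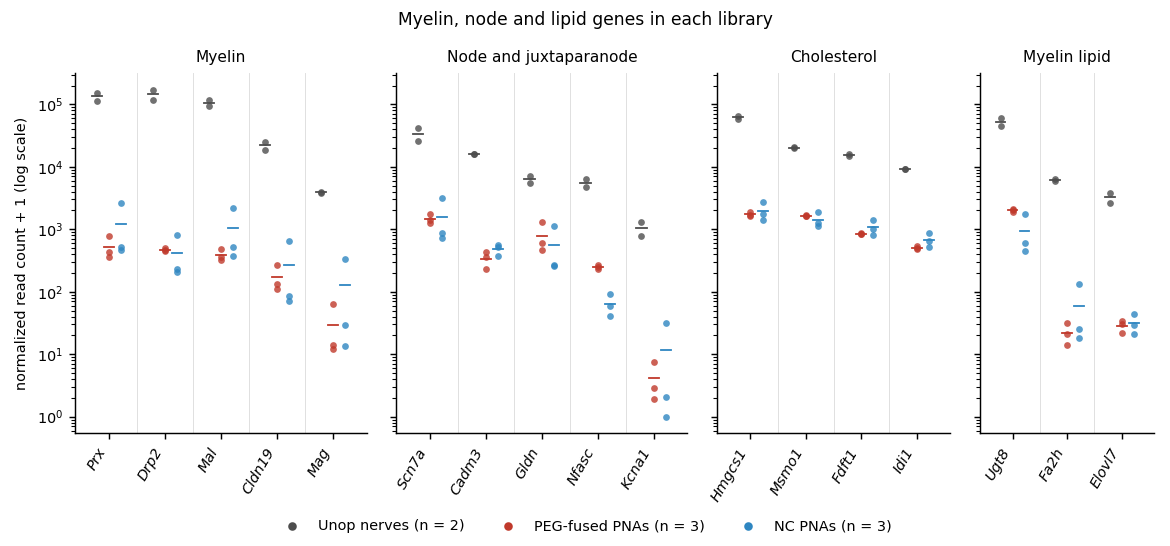
Normalized read count plus 1 on a log axis for myelin, node, cholesterol and myelin lipid genes, with 1 point per library and a bar at the mean of Unop nerves (grey, n = 2), PEG-fused PNAs (red, n = 3) and NC PNAs (blue, n = 3). In each gene drawn, the PEG-fused values lie below both Unop nerves, for example between 1614 and 1899.7 against 59138 and 64503 for Hmgcs1.

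Genes of cell division were higher without exception. In PEG-fused PNAs, all 29 tested mitosis genes were higher, against 16.7% of all genes tested, with a median log2 fold change of 3.98. Top2a, the topoisomerase that untangles chromosomes, was at 105 and 78.8 in the Unop nerves and 3619, 3783 and 3807 in PEG-fused PNAs (log2 fold change 5.34 ± 0.13 (SE), limma adjusted p = 3.66e-07). Mki67, a marker of cycling cells, rose from 182 and 203 to 2972, 3634 and 3707 (log2 fold change 4.15 ± 0.14 (SE), limma adjusted p = 9.31e-07). Cenpf, a kinetochore protein, rose from 37.6 and 27.5 to 1857, 2233 and 2219 (log2 fold change 5.98 ± 0.15 (SE), limma adjusted p = 5.08e-07). The 3 grafts lay within a narrow range in each gene, far above the low counts of resting nerve. Cdk1, the kinase that drives entry into mitosis, rose from 106.2 and 62.5 to 1927, 2099 and 1985 (log2 fold change 4.60 ± 0.19 (SE), limma adjusted p = 1.37e-06), and its partner cyclin Ccnb1 rose from 109.5 and 91.3 to 1291, 1450.0 and 1376 (log2 fold change 3.76 ± 0.14 (SE), limma adjusted p = 1.19e-06). Plk1, a kinase of spindle assembly, rose from 40.8 and 26.3 to 356, 639 and 461 (log2 fold change 3.81 ± 0.30 (SE), limma adjusted p = 1.83e-05). Bub1b of the spindle checkpoint had a log2 fold change of 5.57, the kinesin Kif4a 5.40 and the checkpoint kinase Ttk 4.88. NC PNAs held similar counts, with 3617, 3933 and 3437 for Top2a and 3642, 4330.0 and 3361 for Mki67. Against NC PNAs, 1 of the 29 was called higher in PEG-fused PNAs and none lower, beside 4.56% and 6.24% of all genes tested.

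Because these genes rose together, their promoters are shown for Cenpf, the largest rise of the list, and for Top2a, Cdk1 and Plk1. Each stretch runs 5′ to 3′ over 300 bases, from 250 before the annotated transcription start to 50 after it, and was taken from RefSeq (build GRCr8). The capitals mark the letters TTTGAA of the cell cycle homology region (CHR) and CCAAT boxes, each on either strand, where TTCAAA and ATTGG are the reverse complements. No match of one overlapped a match of the other. The windows lie at chr13:103760837-103761136 on the minus strand, at chr10:84473044-84473343 on the minus strand, at chr20:19265043-19265342 on the plus strand and at chr1:186147408-186147707 on the plus strand.
Cenpf: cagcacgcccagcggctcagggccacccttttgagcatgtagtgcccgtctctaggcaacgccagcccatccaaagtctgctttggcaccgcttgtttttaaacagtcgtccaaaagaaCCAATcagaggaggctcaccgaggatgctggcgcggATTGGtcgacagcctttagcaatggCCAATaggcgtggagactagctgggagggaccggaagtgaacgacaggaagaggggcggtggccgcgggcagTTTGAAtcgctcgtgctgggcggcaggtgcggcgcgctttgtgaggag
Top2a: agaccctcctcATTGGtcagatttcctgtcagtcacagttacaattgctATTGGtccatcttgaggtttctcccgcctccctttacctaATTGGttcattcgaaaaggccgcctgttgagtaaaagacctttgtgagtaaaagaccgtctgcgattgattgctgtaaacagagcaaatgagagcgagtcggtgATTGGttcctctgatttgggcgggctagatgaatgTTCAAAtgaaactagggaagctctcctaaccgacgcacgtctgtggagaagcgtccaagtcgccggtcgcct
Cdk1: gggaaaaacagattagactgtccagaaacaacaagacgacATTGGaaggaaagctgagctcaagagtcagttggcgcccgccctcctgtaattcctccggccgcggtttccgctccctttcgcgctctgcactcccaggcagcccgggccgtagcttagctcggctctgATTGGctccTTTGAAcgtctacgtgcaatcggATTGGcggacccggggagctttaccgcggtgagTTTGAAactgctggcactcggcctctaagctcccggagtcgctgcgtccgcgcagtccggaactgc
Plk1: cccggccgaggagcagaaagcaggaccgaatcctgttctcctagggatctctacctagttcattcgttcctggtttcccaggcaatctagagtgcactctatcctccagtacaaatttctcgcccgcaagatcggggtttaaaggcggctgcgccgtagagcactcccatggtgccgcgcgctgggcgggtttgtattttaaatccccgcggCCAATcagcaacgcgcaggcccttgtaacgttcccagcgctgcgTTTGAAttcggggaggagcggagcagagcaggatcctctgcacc
TTTGAA was found in 19 of the 26 mitosis genes of the list with a promoter window (73.1%), in 1 of 23 DNA replication genes (4.35%) and in 18.3% of all 33469 windows. CCAAT was found in 18 of the 26 (69.2%), and in 37.5% of all windows. The promoters of DNA replication genes held CCAAT in 15 of 23 (65.2%). A match of letters is a description and not a binding site.

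DNA replication genes were higher in the main. Of 29 tested, 21 (72.4%) were higher and none was lower, with a median of 1.82. Mcm5, a subunit of the replicative helicase, rose from 149 and 121 to 1293, 1564 and 1657 (log2 fold change 3.47 ± 0.16 (SE), limma adjusted p = 1.79e-06). Rrm2, which makes deoxynucleotides, rose from 41.9 and 18.8 to 807, 1060.1 and 1068 (log2 fold change 5.06 ± 0.30 (SE), limma adjusted p = 4.67e-06). Uhrf1, which keeps DNA methylation through replication, rose from 48.3 and 41.3 to 1110.4, 1349 and 1346 (log2 fold change 4.79 ± 0.14 (SE), limma adjusted p = 9.31e-07), and the thymidine kinase Tk1, the licensing factor Cdc6 and the initiation factor Mcm10 had log2 fold changes of 4.51, 4.32 and 3.98. Pcna, the sliding clamp of DNA polymerases, was not a DEG and was abundant in every group, with 4578 and 3841 in the Unop nerves and 5053, 4589 and 4994 in PEG-fused PNAs (log2 fold change 0.22 ± 0.14 (SE), limma adjusted p = 0.209, 95% interval -0.10 to 0.53). Among 10 inhibitors of cyclin-dependent kinases and related brakes, 4 were higher and 1 was lower, with a median of -0.23. Cdkn1a (p21), a target of p53, rose from 243 and 155 to 2402, 2567 and 1813 (log2 fold change 3.52 ± 0.26 (SE), limma adjusted p = 1.31e-05). Cdkn2a, whose products act on the Rb and p53 pathways, rose from 58.0 and 47.5 to 390.2, 533 and 305 (log2 fold change 2.90 ± 0.24 (SE), limma adjusted p = 2.63e-05), and Cdkn3 and Rbl1 (p107) had 3.25 and 2.24. Cdkn1b (p27), which keeps cells at rest, fell from 9454 and 11938 to 1919, 1847 and 1966 (log2 fold change -2.47 ± 0.11 (SE), limma adjusted p = 1.79e-06). Cdkn1c (p57) was at 1616 and 1295 and 699, 637 and 1100.4 and was not called (log2 fold change -0.88 ± 0.27 (SE), limma adjusted p = 0.0222), but without PEG 3 its log2 fold change was -1.12 and without Unop 2 it was -1.04. The number of lower inhibitors was 2 without PEG 2, 2 without PEG 3 and 3 without Unop 2.

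**Figure D3:**
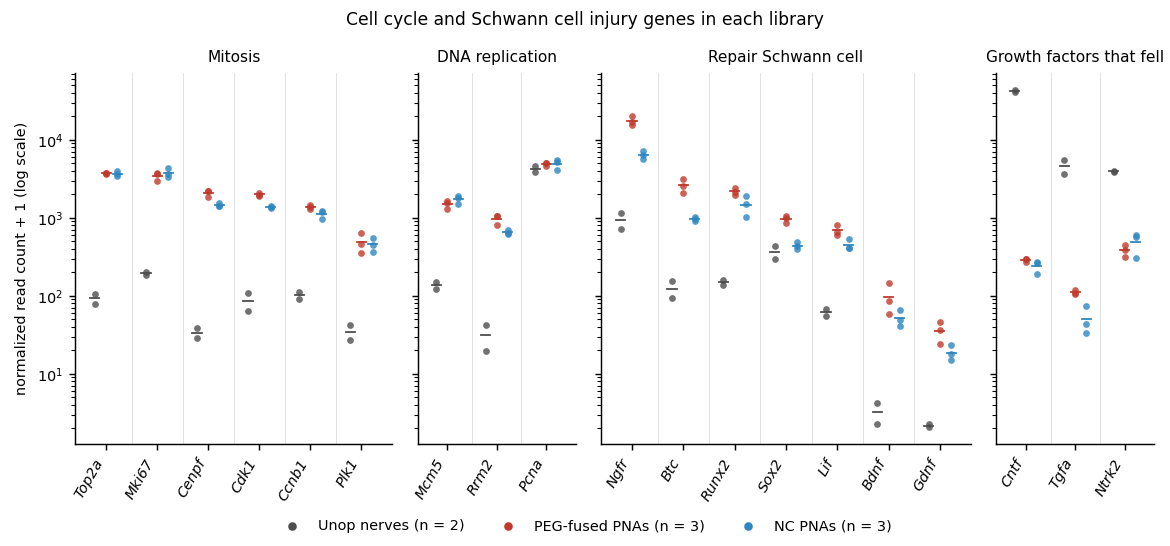
Normalized read count plus 1 on a log axis for genes of the cell cycle, repair Schwann cells and growth factor signalling, with 1 point per library and a bar at the mean of Unop nerves (grey, n = 2), PEG-fused PNAs (red, n = 3) and NC PNAs (blue, n = 3). In the first 3 panels every PEG-fused PNA lies above both Unop nerves, only narrowly so for Pcna, and the 3 genes of the last panel lie below them.

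The collagens of the interstitial matrix moved in both directions. Of 34 genes, 31 passed the filter, 12 (38.7%) were higher and 7 (22.6%) were lower, with a median of 0.54. The fibrillar collagen Col3a1 was at 162510.3 and 126373 in the Unop nerves and 333577, 501779.9 and 366705 in PEG-fused PNAs (log2 fold change 1.46 ± 0.32 (SE), limma adjusted p = 0.0048). Col1a1, the major chain of type I collagen, was at 70005 and 38904 and 95857, 205392 and 110974 (log2 fold change 1.31 ± 0.39 (SE), limma adjusted p = 0.018). PEG 2 had the highest count of both, and without PEG 2 the log2 fold change of Col1a1 was 0.98, which is no longer a DEG. Without Unop 2 it was 0.89. Col8a1, a short-chain collagen of remodelling tissue, rose from 3044 and 2820.4 to 17933, 20825 and 18568 (log2 fold change 2.70 ± 0.18 (SE), limma adjusted p = 7.81e-06). Col12a1, which coats collagen fibrils, rose from 2847 and 3606 to 9829.6, 14729 and 12607 (log2 fold change 1.93 ± 0.24 (SE), limma adjusted p = 0.000217). Col7a1, the chain of anchoring fibrils, rose from 47.2 and 17.5 to 1114, 1780.0 and 851 (log2 fold change 5.32 ± 0.43 (SE), limma adjusted p = 2.20e-05). Col14a1, another fibril-coating chain, was not called (log2 fold change 0.55 ± 0.23 (SE), limma adjusted p = 0.0645). Col28a1, a collagen made by Schwann cells of peripheral nerve, fell from 3074 and 3251 to 34.3, 19.6 and 49.7 (log2 fold change -6.57 ± 1.23 (SE), limma adjusted p = 0.00196). Col9a1, a chain known from cartilage, fell from 948 and 1169 to 50.1, 27.1 and 11.3 (log2 fold change -5.34 ± 0.84 (SE), limma adjusted p = 0.000765). Col2a1, another such chain, had a log2 fold change of -6.24 (limma adjusted p = 0.00873), and without Unop 2 the adjusted p was 0.0535. The fibrillar chain Col24a1 fell from 982 and 2099 to 47.3, 76.7 and 59.1 (log2 fold change -4.56 ± 0.36 (SE), limma adjusted p = 1.95e-05). Against NC PNAs, 10 of the 31 tested interstitial collagens were higher in PEG-fused PNAs and none was lower. For all genes tested the shares were 4.56% and 6.24%.

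Basement membrane chains were lower or not called. Of 19 tested, none was higher and 7 (36.8%) were lower, with a median of -0.58. Col4a1, the common chain of type IV collagen, was at 18916 and 15473 in the Unop nerves and 20977, 22696 and 20930.3 in PEG-fused PNAs (log2 fold change 0.33 ± 0.14 (SE), limma adjusted p = 0.0654). Among the chains of restricted use, Col4a4 went from 5343 and 5336 to 335, 366 and 369 (log2 fold change -3.90 ± 0.14 (SE), limma adjusted p = 9.31e-07) and Col4a3 from 574 and 670.4 to 53.8, 54.2 and 80.7 (log2 fold change -3.31 ± 0.25 (SE), limma adjusted p = 1.46e-05). Lama2, the laminin chain of the Schwann cell basal lamina, fell from 12129 and 16731 to 4571, 6053 and 5745 (log2 fold change -1.39 ± 0.23 (SE), limma adjusted p = 0.000988), and Lamb2, which assembles with it, had -1.64 as its log2 fold change. Lamb3, a laminin chain of epithelial basement membranes, had -3.88. Lama5, of endothelial and perineurial laminins, was not called (log2 fold change -0.44 ± 0.14 (SE), limma adjusted p = 0.0256). Col4a5 had -1.17 (limma adjusted p = 0.00574), and without Unop 1 the adjusted p was 0.0523.

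Enzymes that finish and cross-link collagen were higher in 10 of 25 tested genes and lower in 2, with a median of 0.94. Lox (lysyl oxidase) rose from 3031 and 2404 to 6712, 11248 and 8574 (log2 fold change 1.68 ± 0.31 (SE), limma adjusted p = 0.00184). Loxl1, which acts on elastic fibres, rose from 1498 and 578 to 6417, 8321 and 7549.6 (log2 fold change 2.99 ± 0.35 (SE), limma adjusted p = 0.000163). Loxl2 rose from 894 and 653 to 3846, 10837 and 4223 (log2 fold change 2.87 ± 0.42 (SE), limma adjusted p = 0.000556), with its highest value in PEG 2. P4ha3, a prolyl hydroxylase subunit, rose from 89.1 and 73.8 to 376, 476 and 516 (log2 fold change 2.46 ± 0.33 (SE), limma adjusted p = 0.000302), and Plod2, a lysyl hydroxylase, had a log2 fold change of 2.23. Tll1, a protease of procollagen, and P3h2, a prolyl hydroxylase of basement membrane collagen, fell, with -2.46 and -1.84.

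Matricellular and elastic fibre genes were higher in 14 of 33 tested (42.4%, of 35 in the table) and lower in 2, with a median of 0.49. The number of lower genes was 4 without PEG 2 and 5 without Unop 2. Postn (periostin), a collagen-binding protein of healing tissue, rose from 6839.5 and 1852 in the Unop nerves to 93039, 100468 and 86613 in PEG-fused PNAs (log2 fold change 4.71 ± 0.46 (SE), limma adjusted p = 5.41e-05). Tnc (tenascin C), which appears at sites of nerve injury, rose from 7289 and 6062 to 29781, 74641 and 37963 (log2 fold change 2.72 ± 0.46 (SE), limma adjusted p = 0.00122), with PEG 2 highest. Cthrc1, a secreted protein of activated fibroblasts, rose from 511 and 196 to 8055, 8633 and 9747 (log2 fold change 4.79 ± 0.34 (SE), limma adjusted p = 1.13e-05). Tnn (tenascin N) had a log2 fold change of 5.69 and Ltbp2, a microfibril protein, had 3.93, while the calcium-binding matrix protein Smoc1 fell by 4.52 on the log2 scale. Spp1 (osteopontin), made by Schwann cells and macrophages, was at 125466 and 88731 in the Unop nerves, 92747, 109995 and 133087 in PEG-fused PNAs and 21037, 12807 and 16517 in NC PNAs. The PEG-fused and Unop values overlapped (log2 fold change 0.07 ± 0.26 (SE), limma adjusted p = 0.832, 95% interval -0.53 to 0.67), and both groups lay above every NC PNA. Its log2 fold change over NC PNAs was 2.75 (limma adjusted p = 0.000465). Eln (elastin) was at 4175 and 2659 in the Unop nerves, 4086, 3561 and 5828 in PEG-fused PNAs and 1974, 1878 and 1405 in NC PNAs. It was not called against Unop nerves (log2 fold change 0.40 ± 0.26 (SE), limma adjusted p = 0.218) and had 1.34 over NC PNAs (limma adjusted p = 0.00461). For Thbs4 (thrombospondin 4), the values were 24864 and 21779 and 28322, 39927 and 30747 (log2 fold change 0.49 ± 0.29 (SE), limma adjusted p = 0.181), and 18555, 18779 and 9671 in NC PNAs.

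Proteases of the matrix and their inhibitors were higher in 20 of 34 tested genes (58.8%) and lower in 7 (20.6%), with a median of 1.82. Mmp12, the elastase of macrophages, rose from 261 and 37.5 to 4672, 5382 and 16319 (log2 fold change 6.21 ± 0.77 (SE), limma adjusted p = 0.00021), and PEG 3 stood above the other grafts. Mmp9, a gelatinase, rose from 66.5 and 23.8 to 538, 1392 and 3368 (log2 fold change 5.06 ± 0.70 (SE), limma adjusted p = 0.000409). Mmp14, a collagenase of the cell surface, rose from 3192 and 3096 to 6764, 10431 and 8920.1 (log2 fold change 1.45 ± 0.24 (SE), limma adjusted p = 0.00114). Mmp13, with a single read in Unop nerves, was 185-fold (95% counting interval 33.0 to 7339) higher in PEG-fused PNAs. Mmp7 ranged widely among the grafts, at 467, 36.5 and 64.7 against 6.44 and 0 in the Unop nerves. Its log2 fold change was 5.26 (limma adjusted p = 0.00781), and without Unop 2 the adjusted p was 0.0798. Of the inhibitors, Timp4 fell from 1152 and 893 to 403, 154 and 355 (log2 fold change -1.85 ± 0.41 (SE), limma adjusted p = 0.005). Timp1 was at 6957 and 5391 and 11792, 14278 and 9923 (log2 fold change 0.95 ± 0.25 (SE), limma adjusted p = 0.0106), just short of the fold change threshold, and was a DEG without PEG 3 (1.08, limma adjusted p = 0.0125) or without Unop 1 (1.14, limma adjusted p = 0.0251).

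**Figure D4:**
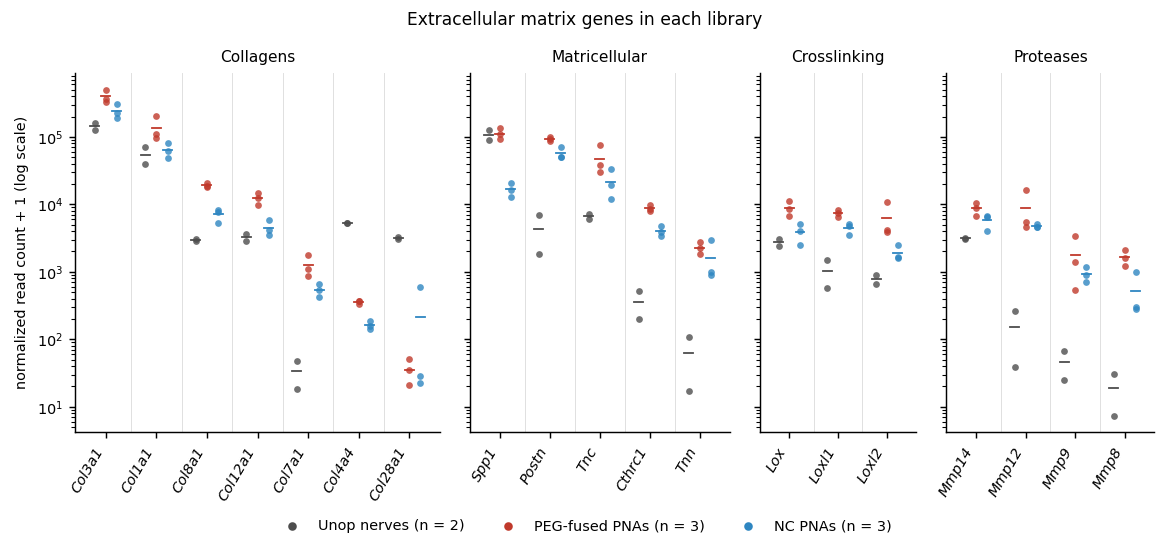
Normalized read count plus 1 on a log axis for collagens, matricellular proteins, crosslinking enzymes and matrix proteases, with 1 point per library and a bar at the mean of Unop nerves (grey, n = 2), PEG-fused PNAs (red, n = 3) and NC PNAs (blue, n = 3). Postn lies between 86613 and 100468 in PEG-fused PNAs against 6839.5 and 1852 in the Unop nerves, while for Spp1 these groups overlap and NC PNAs lie below both.

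Lysosomal genes were higher in 22 of 40 tested (55.0%) and lower in none, with a median of 1.17. Ctsd (cathepsin D), an aspartic protease, rose from 27996 and 24095 in the Unop nerves to 189489, 186136 and 231298 in PEG-fused PNAs (log2 fold change 2.95 ± 0.19 (SE), limma adjusted p = 6.67e-06), and Ctsb, a cysteine protease, had a log2 fold change of 2.46. Ctsk, the collagen-cleaving cathepsin, rose from 4471 and 3044 to 12812, 16612 and 21805 (log2 fold change 2.18 ± 0.23 (SE), limma adjusted p = 8.53e-05). Lipa, which frees cholesterol from its esters, rose from 2156 and 1652 to 13382, 15557 and 17148 (log2 fold change 3.02 ± 0.14 (SE), limma adjusted p = 1.79e-06). Atp6v0d2, a proton pump subunit of osteoclasts and macrophages, rose from 30.05 and 16.3 to 436, 471 and 782 (log2 fold change 4.56 ± 0.32 (SE), limma adjusted p = 1.08e-05). Ctss, Ctsz and Grn, which encode the cathepsins S and Z and progranulin, had 3.13, 2.75 and 2.40. Galc, which degrades the galactosylceramide of myelin, was not a DEG (log2 fold change 0.42 ± 0.16 (SE), limma adjusted p = 0.0471). The CLEAR motif of lysosomal promoters, TCACGTGA, searched on both strands, was found in 4 of the 28 genes of the list with a promoter window (14.3%) and in 0.777% of all windows.

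The genes by which macrophages take up and carry lipid were higher in 15 of 23 tested (65.2%) and lower in 2, with a median of 2.10. Gpnmb, a glycoprotein of lipid-laden macrophages, rose from 6066 and 3529.6 to 111446, 125349.9 and 155280.3 (log2 fold change 4.81 ± 0.26 (SE), limma adjusted p = 3.18e-06). Trem2, a lipid-sensing receptor, rose from 947 and 609 to 10330.1, 9682 and 11400.4 (log2 fold change 3.78 ± 0.18 (SE), limma adjusted p = 2.07e-06). Apoe, the apolipoprotein that nerves release after injury, rose from 115567 and 80919 to 672272, 569109 and 609317 (log2 fold change 2.67 ± 0.34 (SE), limma adjusted p = 0.000234). Abca1, which exports cholesterol, rose from 2428 and 2165 to 34345, 33502 and 32185 (log2 fold change 3.86 ± 0.16 (SE), limma adjusted p = 1.37e-06). Counts of Gpnmb and Abca1 were thus more than 10-fold above Unop nerves in every graft. Lgals3 (galectin 3) rose from 13947 and 8056 to 55212, 51665 and 68161 (log2 fold change 2.45 ± 0.23 (SE), limma adjusted p = 4.35e-05), and Plin2, which coats lipid droplets, rose from 2664 and 2139 to 7197, 6137 and 8650.0 (log2 fold change 1.60 ± 0.15 (SE), limma adjusted p = 4.81e-05). The scavenger receptor Olr1, the pattern receptor Clec7a and the lipid-binding protein Cd5l had log2 fold changes of 5.44, 4.98 and 6.35. Mertk, a receptor for the uptake of dying cells and myelin, was at 2577 and 3152 and 2542, 2320.4 and 2734 (log2 fold change -0.17 ± 0.19 (SE), limma adjusted p = 0.462, 95% interval -0.62 to 0.27).

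Of 23 tested genes of monocyte and macrophage identity, 19 (82.6%) were higher and 1 was lower, with a median of 2.17. Csf1r, the receptor for the macrophage growth factor, rose from 5752 and 4765 to 13699, 13128 and 14727 (log2 fold change 1.40 ± 0.14 (SE), limma adjusted p = 5.55e-05). Cx3cr1, the fractalkine receptor, rose from 97.7 and 56.3 to 932, 670.3 and 894 (log2 fold change 3.46 ± 0.24 (SE), limma adjusted p = 1.06e-05). Vsig4, a complement receptor of resident macrophages, rose from 7.51 and 1.25 to 321, 164 and 253 (log2 fold change 5.76 ± 0.57 (SE), limma adjusted p = 6.17e-05). Siglec1, Itgam and Lyz2 had log2 fold changes of 4.97, 3.84 and 3.67. Cd209f, a C-type lectin with close relatives in its gene cluster, went the other way, from 533 and 258 in the Unop nerves to 0, 7.48 and 2.81 in PEG-fused PNAs (log2 fold change -6.87 ± 0.84 (SE), limma adjusted p = 0.0002). Against NC PNAs, 7 of the 23 were lower in PEG-fused PNAs and 1 was higher, beside 6.24% and 4.56% of all genes tested. Lyz2, for example, was at 437481, 646889 and 624852 in NC PNAs.

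T cell transcripts lay between Unop nerves and NC PNAs. In PEG-fused PNAs, all 16 genes of the T cell receptor complex exceeded Unop nerves by the test, with a median log2 fold change of 3.46 (3.39 with the gene at 0 reads in Unop nerves set to its bound), and all 16 were lower than in NC PNAs. Cd3d, a chain of the receptor complex, was at 19.3 and 11.3 in the Unop nerves, 322, 75.7 and 228 in PEG-fused PNAs and 1702, 3728 and 2620.0 in NC PNAs (log2 fold change 3.50 ± 0.59 (SE), limma adjusted p = 0.0011 against Unop nerves, -3.84 and limma adjusted p = 0.00184 against NC PNAs). Lck, the kinase of the receptor, was at 98.7 and 58.8, 898, 359.9 and 795 and 3592, 6938 and 4316 in the same order (log2 fold change 3.04 ± 0.43 (SE), limma adjusted p = 0.000452 against Unop nerves). Cd8b, of cytotoxic T cells, was at 38.6 and 23.8, 1619, 863 and 1126 and 3079, 4385 and 4869 (log2 fold change 5.22 ± 0.31 (SE), limma adjusted p = 5.13e-06 against Unop nerves). The log2 fold changes over Unop nerves were 4.18 for Cd3e, 4.06 for the costimulator Cd27 and 4.01 for the coreceptor Cd5. PEG 2 had the lowest count of the 3 grafts in each of these genes.

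Most tested genes of cytotoxic and B lymphocytes were also higher than in Unop nerves. Of 14 tested genes of cytotoxic lymphocytes, 12 (85.7%) were higher than in Unop nerves, with a median of 3.03, and all 14 were lower than in NC PNAs. Nkg7, of cytotoxic granules, rose from 32.2 and 22.5 to 520.0, 147 and 199.8 (log2 fold change 3.16 ± 0.50 (SE), limma adjusted p = 0.000827), and the chemokine Xcl1 rose from 2.15 and 2.50 to 117, 43.9 and 59.1 (log2 fold change 4.36 ± 0.46 (SE), limma adjusted p = 8.34e-05). The protease Ctsw, the chemokine Ccl5 and the transcription factor Eomes had 4.12, 3.77 and 3.67. Gzmk, a granzyme, had 3.07 (limma adjusted p = 0.0146), and without Unop 2 it was not called (1.93, limma adjusted p = 0.136). Of 15 genes of B and plasma cells, 9 passed the filter and 7 of these were higher, with a median of 3.25. Blnk, an adaptor of B cells that macrophages also use, rose from 172 and 126 to 2221, 2028 and 2756 (log2 fold change 3.97 ± 0.17 (SE), limma adjusted p = 1.37e-06), and the complement receptor Cr2, the kinase Blk and the Fc receptor relative Fcrla had 4.62, 3.54 and 3.43. Cd79b, of the B cell receptor, was at 12.9 and 1.25 and 17.6, 10.3 and 19.7 and was not called (log2 fold change 1.55 ± 0.71 (SE), limma adjusted p = 0.0911), while without Unop 1 it was (2.86, limma adjusted p = 0.00383). Ms4a1 (CD20) did not pass the filter, with 33 reads in the 3 PEG-fused PNAs together and 10 in the Unop nerves. Pax5, Mzb1, Tnfrsf13b, Tnfrsf17 and Fcer2 did not pass it either. The summed B and plasma cell list was at 3893, 3288 and 4287 in PEG-fused PNAs, most of it Blnk, and 382 and 283 in Unop nerves.

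Most mast cell transcripts fell. Of 12 tested, 8 (66.7%) were lower and 2 were higher, with a median of -2.41. Cma1, the mast cell chymase, fell from 2668 and 1475 in the Unop nerves to 84.3, 243 and 69.4 in PEG-fused PNAs (log2 fold change -4.13 ± 0.52 (SE), limma adjusted p = 0.000241). Cpa3, a carboxypeptidase of mast cell granules, fell from 3552 and 1463 to 182, 366 and 113 (log2 fold change -3.53 ± 0.57 (SE), limma adjusted p = 0.000888). Ms4a2, a chain of the IgE receptor, fell from 477 and 408 to 28.7, 52.4 and 15.01 (log2 fold change -3.91 ± 0.55 (SE), limma adjusted p = 0.000425), and PEG 2 held the highest count of all 3 genes among the grafts. Kit, the stem cell factor receptor, which melanocytes and other cells carry too, was not called (log2 fold change 0.60 ± 0.25 (SE), limma adjusted p = 0.0687). The genes that rose were Il1rl1, the interleukin 33 receptor, from 306 and 250.1 to 2744, 9201 and 2306 (log2 fold change 3.80 ± 0.54 (SE), limma adjusted p = 0.000474), and the protease Mcpt2 (3.63), whose reads can be shared with its close relatives. The summed list overlapped, with 9929 and 5971 in Unop nerves and 4399, 11105 and 3755 in PEG-fused PNAs. Il1rl1 made up most of this sum in each PEG-fused PNA and little of it in Unop nerves.

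Of 14 neutrophil genes, 9 passed the filter, 4 of these (44.4%) were higher and 1 was lower, with a median of 1.12. The collagenase Mmp8, given above, was 1 of the 4. Csf3r, the receptor for the granulocyte growth factor, rose from 68.7 and 36.3 to 970.4, 656 and 654 (log2 fold change 3.88 ± 0.30 (SE), limma adjusted p = 1.79e-05). S100a8, an abundant protein of neutrophils, was at 5.37 and 3.75 and 21.3, 14.02 and 17.8 (log2 fold change 1.75 ± 0.37 (SE), limma adjusted p = 0.00382), and its partner S100a9 was called, of the libraries left out in turn, only without Unop 1 (1.74, limma adjusted p = 0.0406; 1.04 with all libraries, limma adjusted p = 0.121). Camp, an antimicrobial peptide with 2 reads in Unop nerves, was 18.0-fold (95% counting interval 4.80 to 152) higher. Mpo (myeloperoxidase) fell from 391 and 343 to 0, 0 and 4.69 (log2 fold change -7.68 ± 0.76 (SE), limma adjusted p = 6.33e-05).

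Chemokines were higher in 17 of 29 tested genes (58.6%) and lower in 5 (17.2%), with a median of 1.94, and 16 were lower than in NC PNAs. Cxcl9, induced by interferon gamma, rose from 481 and 445 in the Unop nerves to 3947, 1254 and 1970.0 in PEG-fused PNAs (log2 fold change 2.20 ± 0.45 (SE), limma adjusted p = 0.00297), and stood at 49817, 37081 and 24509 in NC PNAs. Ccl3, which attracts monocytes, rose from 20.4 and 12.5 to 107, 167 and 292 (log2 fold change 3.36 ± 0.44 (SE), limma adjusted p = 0.000281). Ccl9 and Cxcl3, which attract myeloid cells, had log2 fold changes of 4.34 and 4.44. Ccl21, made by lymphatic endothelium, fell from 15435 and 5393 to 20.4, 8.41 and 295 (log2 fold change -7.87 ± 1.30 (SE), limma adjusted p = 0.00103). Cxcl13, which attracts B cells, was at 618 and 504 in the Unop nerves and 1461, 618 and 352 in PEG-fused PNAs, with 6178, 16983 and 14416 in NC PNAs (log2 fold change 0.29 ± 0.59 (SE), limma adjusted p = 0.693 against Unop nerves). Without PEG 1, its log2 fold change was -0.26. The values of Cxcl14 overlapped (log2 fold change -0.03 ± 0.43 (SE), limma adjusted p = 0.955), and the sign of its difference turned without PEG 2 or without Unop 1. Of 20 chemokine receptors, 11 (55.0%) were higher and 4 were lower, with a median of 2.73 (2.68 with Ccr4 at its bound). Cxcr4, the receptor for Cxcl12, rose from 343 and 309 to 5358, 4328 and 4201 (log2 fold change 3.82 ± 0.31 (SE), limma adjusted p = 2.32e-05). Cxcr1 and Ccr7 had 4.85 and 4.09. Both Unop nerves had 0 reads of Ccr4, which the grafts exceeded by at least 7.60-fold, and Ccr9, with 2 reads there, was 53.3-fold (95% counting interval 14.6 to 443) higher.

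Interferon-induced genes were higher in 10 of 29 tested (34.5%) and lower in none, with a median of 1.16. Without Unop 2, 6 were higher. Irf8, a factor of myeloid cells, rose from 389.6 and 310.2 to 6027, 3079 and 4942 (log2 fold change 3.69 ± 0.30 (SE), limma adjusted p = 2.01e-05), and Gbp2, a guanylate-binding protein, rose from 4022 and 3204 to 21618, 13939 and 16633 (log2 fold change 2.25 ± 0.31 (SE), limma adjusted p = 0.00039). Irf7, the master factor of type I interferon genes, was at 829 and 683 in the Unop nerves and 2601, 5272 and 1068 in PEG-fused PNAs (log2 fold change 1.70 ± 0.69 (SE), limma adjusted p = 0.061). Isg15, a ubiquitin-like protein, was at 467 and 294 and 897, 3015 and 390.2 (log2 fold change 1.46 ± 0.84 (SE), limma adjusted p = 0.169), and PEG 3 lay between the Unop nerves. In both, PEG 2 was the highest graft and PEG 3 the lowest. In Ifit1, which did not pass the filter and was picked after its values were seen, PEG 3 was the highest, with 2, 4 and 32 reads in PEG 1, PEG 2 and PEG 3. Both Irf7 and Isg15 were called without PEG 3 (2.30, limma adjusted p = 0.0139 and 2.15, limma adjusted p = 0.0461). Irf7 was also called by edgeR (2.003, adjusted p = 0.0482), by DESeq2 (1.99, adjusted p = 0.036) and by limma in the PEG-fused and Unop libraries alone (1.70, adjusted p = 0.0385). Rsad2 (viperin) was not called (log2 fold change 1.34 ± 0.85 (SE), limma adjusted p = 0.206) except in the PEG-fused and Unop libraries alone (1.34, limma adjusted p = 0.0387). Oasl rose from 111 and 78.8 to 535, 1070.4 and 254 (log2 fold change 2.48 ± 0.65 (SE), limma adjusted p = 0.0109) but was not called without Unop 2 (2.24, limma adjusted p = 0.077). Oas2 and Oas3, sensors of double-stranded RNA, had 2.58 and 2.14, and neither was called without Unop 1 (2.71, limma adjusted p = 0.0602, and 1.87, limma adjusted p = 0.129) or without Unop 2 (limma adjusted p = 0.0802 and 0.0634). Without PEG 2, Oas3 was not called either (limma adjusted p = 0.062). The interferon-stimulated response element (ISRE), searched on both strands, was found in 15 of the 23 genes of the list with a promoter window (65.2%) and in 3.92% of all windows.

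Antigen presentation genes were higher than in Unop nerves and lower than in NC PNAs in the main. Of 24 tested genes of antigen processing and presentation, 14 (58.3%) were higher than in Unop nerves, with a median of 1.33, and 17 were lower than in NC PNAs. Cd74, the invariant chain, rose from 34754 and 24419 to 209954, 78782 and 90105 (log2 fold change 1.97 ± 0.42 (SE), limma adjusted p = 0.00374) and was at 454170.1, 595766 and 485173 in NC PNAs. Tap1, which carries peptides into the endoplasmic reticulum, rose from 819.9 and 677 to 2534, 2207 and 1800.2 (log2 fold change 1.53 ± 0.17 (SE), limma adjusted p = 0.000118), and Psmb8 of the immunoproteasome had 1.34 and the lysosomal reductase Ifi30 3.10. The master regulators Ciita of class II and Nlrc5 of class I had 2.39 and 2.57. B2m, the light chain of class I molecules, was not a DEG, with 74626 and 49152 and 141733, 80842 and 86681 (log2 fold change 0.72 ± 0.30 (SE), limma adjusted p = 0.0712), and stood at 314043, 335977 and 286945 in NC PNAs.

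Complement genes were higher in 16 of 30 tested (53.3%) and lower in 3, with a median of 1.66. C1qa, which starts the classical pathway, rose from 6867 and 3809 to 28394, 21556 and 22352 (log2 fold change 2.23 ± 0.24 (SE), limma adjusted p = 9.12e-05). C3, the central component, rose from 554 and 589 to 8151, 2623 and 3306 (log2 fold change 2.85 ± 0.42 (SE), limma adjusted p = 0.000558), with PEG 1 highest, and stood at 28111, 39855 and 26344 in NC PNAs. The receptor C3ar1 rose from 164 and 149 to 1249, 1451 and 1209 (log2 fold change 3.05 ± 0.13 (SE), limma adjusted p = 1.37e-06). The protease Cfi and the complement receptor chain Itgb2 had 3.89 and 4.18. C7, of the membrane attack complex, was not called (log2 fold change 0.63 ± 0.24 (SE), limma adjusted p = 0.0493) but was without Unop 1 (1.04, limma adjusted p = 0.0058).

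**Figure D5:**
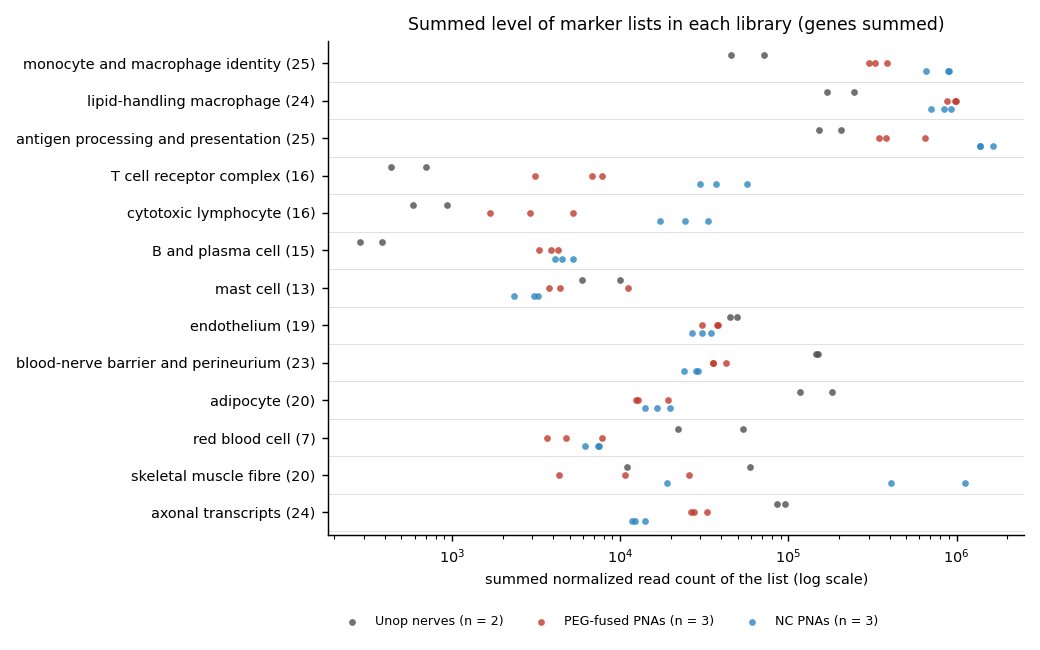
Summed normalized read count of 13 lists on a log axis, with 1 point per library for Unop nerves (grey, n = 2), PEG-fused PNAs (red, n = 3) and NC PNAs (blue, n = 3). PEG-fused PNAs lie above both Unop nerves in the macrophage and lymphocyte lists. They lie below both in the lists of the endothelium, barrier, adipocytes, red blood cells and axons, and overlap them for mast cells and skeletal muscle fibres. In PEG-fused PNAs, Blnk made up most of the B and plasma cell sum and Il1rl1 most of the mast cell sum. Sncg made up most of the axon sum in Unop nerves, and without Sncg the PEG-fused and Unop axon sums overlap.

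Of 21 tested genes of the blood-nerve barrier and the perineurium, 13 (61.9%) were lower and 2 were higher, with a median of -1.74. Cldn1, the tight junction protein of perineurial cells, fell from 18783 and 14248 in the Unop nerves to 1318, 1495 and 1587 in PEG-fused PNAs (log2 fold change -3.48 ± 0.75 (SE), limma adjusted p = 0.00417). Slc2a1, the glucose transporter of the barrier, fell from 11646 and 10749 to 2401, 3103 and 2502 (log2 fold change -2.08 ± 0.25 (SE), limma adjusted p = 0.000168). Itgb4, the laminin receptor of perineurium and Schwann cells, fell from 61011 and 53989 to 2848, 2724 and 2907 (log2 fold change -4.34 ± 0.18 (SE), limma adjusted p = 1.37e-06), and the scaffold Tjp1 fell from 7673 and 10018 to 3072, 3200.1 and 3054 (log2 fold change -1.50 ± 0.15 (SE), limma adjusted p = 6.81e-05). Krt19, a keratin, fell from 1280.3 and 792 to 7.42, 14.96 and 5.63 (log2 fold change -6.71 ± 0.60 (SE), limma adjusted p = 3.43e-05), whereas Msln (mesothelin) rose from 531 and 279 to 5566, 9682 and 5480.2 (log2 fold change 4.11 ± 0.38 (SE), limma adjusted p = 4.23e-05). The transporters Abcg2 and Mfsd2a of barrier endothelium had -2.79 and -2.79. Of 17 endothelial genes tested, none was higher and 6 (35.3%) were lower, with a median of -0.55. Cdh5 (VE-cadherin), the adhesion protein of endothelial junctions, was at 5973 and 5602 and 5673, 4236 and 4704 (log2 fold change -0.26 ± 0.18 (SE), limma adjusted p = 0.239, 95% interval -0.66 to 0.15). Vwf, of endothelial storage granules, fell from 4222 and 4164 to 1910.3, 1522 and 1883 (log2 fold change -1.25 ± 0.14 (SE), limma adjusted p = 0.000126), and the receptor Tek, the factor Sox17 and the matrix protein Mmrn2 had -1.31, -1.44 and -1.85. Plvap, of fenestrated vessels, was not called (log2 fold change -0.78 ± 0.26 (SE), limma adjusted p = 0.0277) but was without Unop 2 (-1.05, limma adjusted p = 0.0282).

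Fat and blood transcripts were lower in grafts, and muscle transcripts varied from library to library. All 19 tested adipocyte genes were lower in PEG-fused PNAs, with a median of -6.58. Adipoq (adiponectin) fell from 35084 and 18102 to 238, 264 and 288 (log2 fold change -6.58 ± 0.39 (SE), limma adjusted p = 5.08e-06). Plin1, which coats the fat droplet, fell from 6366 and 3691 to 12.0, 7.48 and 46.0 (log2 fold change -8.13 ± 0.86 (SE), limma adjusted p = 8.91e-05), and Cidec, another droplet protein, fell from 8406 and 5671 to 20.4, 9.35 and 26.3 (log2 fold change -8.57 ± 0.50 (SE), limma adjusted p = 4.61e-06). Acvr1c, an activin receptor of fat with 3 reads in the PEG-fused PNAs, was 312-fold (95% counting interval 106.1 to 1518) higher in Unop nerves. Unop 1 was the higher of the Unop nerves in Adipoq, Plin1 and Cidec, and the summed list was at 181916 and 117038 in Unop nerves, 12783, 12387 and 19207 in PEG-fused PNAs and 19836, 14023 and 16654 in NC PNAs. All 6 tested red blood cell genes were lower too, with a median of -2.77. Hbb (beta globin) fell from 15090.4 and 6084 to 2067, 1098 and 826 (log2 fold change -2.96 ± 0.44 (SE), limma adjusted p = 0.000583), and Alas2, of haem synthesis in erythroid cells, fell from 488 and 215 to 59.3, 47.7 and 30.02 (log2 fold change -2.85 ± 0.39 (SE), limma adjusted p = 0.00039). Slc4a1, the anion exchanger of red cells, had -2.80. The alpha globin copies Hba-a1, Hba-a2 and Hba-a3 had -2.75, -2.47 and -2.75, and reads can be shared between them. Unop 1 held more of these transcripts than Unop 2.

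Of 20 skeletal muscle fibre genes, 1 was higher and 1 was lower, with a median of -1.28, and the summed level overlapped, with 59257 and 10936 in Unop nerves and 25636, 4349 and 10733 in PEG-fused PNAs. Acta1 (skeletal actin) was at 8945 and 1759.8 and 6522, 1033 and 2673 (log2 fold change -0.60 ± 1.58 (SE), limma adjusted p = 0.761), and its difference changed sign without PEG 2 (0.07) or without Unop 1 (0.57). Ckm (muscle creatine kinase) had -1.15 (limma adjusted p = 0.589), and 0.47 without Unop 1. The fall of Myh7 (slow myosin; -3.95, limma adjusted p = 0.0284) was not called when PEG 1, PEG 2 or either Unop library was left out, with limma adjusted p between 0.064 and 0.132. Tnnt1, a slow troponin, rose from 22.5 and 18.8 to 124, 94.4 and 111 (log2 fold change 2.35 ± 0.28 (SE), limma adjusted p = 0.000159). Of 12 genes of muscle formation, 6 passed the filter, with a median of 0.76. Myh8 (perinatal myosin), with 3 reads in Unop nerves, was 23.0-fold (95% counting interval 7.69 to 113) higher, and Cdh15 (M-cadherin) was lower by 1.71 on the log2 scale. Both calls were lost whichever of the 5 libraries was left out, with limma adjusted p between 0.0528 and 0.178 for Myh8 and between 0.0631 and 0.129 for Cdh15. Myog (myogenin) and Myh3 (embryonic myosin) were not called, with 1.96 and 2.02 (limma adjusted p = 0.248 and 0.2). In the PEG-fused and Unop libraries alone, Myh3 was called (2.02, limma adjusted p = 0.0223). Myh8 was not called by edgeR (adjusted p = 0.116) or with a pseudocount of 8 (limma adjusted p = 0.175), and with that pseudocount neither was Myh7 (limma adjusted p = 0.0544). The part of fat, blood and muscle in the other results was not tested.

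Genes of the circadian clock differed in both directions. Of 18 clock genes tested, 4 (22.2%) were higher and 7 (38.9%) were lower, with a median of -0.81. The shares of all genes tested were 16.7% and 16.0%. Nr1d1 (Rev-erb alpha), a repressor of the clock, fell from 1574 and 1197 in the Unop nerves to 210.4, 219 and 197 in PEG-fused PNAs (log2 fold change -2.71 ± 0.17 (SE), limma adjusted p = 6.55e-06). Dbp, an output gene that cycles with the time of day, fell from 4107 and 2777 to 754, 709 and 660.4 (log2 fold change -2.25 ± 0.23 (SE), limma adjusted p = 6.49e-05). Hlf, Ciart and Nr1d2, also clock output genes or repressors, had -2.89, -2.42 and -1.89. Npas2, an activator that Nr1d1 represses, rose from 75.1 and 72.5 to 451, 500.2 and 625 (log2 fold change 2.80 ± 0.26 (SE), limma adjusted p = 4.21e-05), and Arntl (Bmal1), its partner, was at 598 and 688 and 1102, 1225 and 1337, below the fold change threshold (log2 fold change 0.92 ± 0.20 (SE), limma adjusted p = 0.00442) except without Unop 2 (1.02, limma adjusted p = 0.0182). Per3 had -1.39 (limma adjusted p = 0.00578) and was not called without Unop 2 (-1.10, limma adjusted p = 0.0598). The time of day at which tissue was taken is not given in the sources used here.

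Among 23 immediate early genes, 9 (39.1%) were higher and 3 were lower, with a median of 0.92. Fos, of the AP-1 complex, rose from 153 and 293 to 1244, 1238 and 1086 (log2 fold change 2.48 ± 0.24 (SE), limma adjusted p = 5.34e-05), and Egr1 rose from 400.3 and 472 to 975, 1261 and 814 (log2 fold change 1.20 ± 0.21 (SE), limma adjusted p = 0.00124). Atf3, a stress factor of injured nerve, rose from 855 and 795 to 5887, 9031 and 4333 (log2 fold change 2.89 ± 0.29 (SE), limma adjusted p = 6.56e-05), and the phosphatase Dusp2 and the AP-1 protein Fosl1 had 3.99 and 2.46, while the orphan receptor Nr4a1 fell from 3028 and 3501 to 539, 627 and 742 (log2 fold change -2.37 ± 0.21 (SE), limma adjusted p = 3.76e-05).

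In energy metabolism, glycolysis and the polyol pathway were higher in 4 of 29 tested genes (13.8%) and lower in 9 (31.0%), with a median of -0.67. The shares of all genes tested were 16.7% and 16.0%. Akr1b1 (aldose reductase), which turns glucose into sorbitol in Schwann cells, fell from 74534 and 78448 in the Unop nerves to 8629, 8150.2 and 8299 in PEG-fused PNAs (log2 fold change -3.19 ± 0.10 (SE), limma adjusted p = 9.31e-07). Aldoc, the aldolase of neural tissue, fell from 6351 and 7318 to 264, 313 and 219 (log2 fold change -4.69 ± 0.27 (SE), limma adjusted p = 3.99e-06), and Ldhb, a lactate dehydrogenase subunit, had -2.79. Of the hexokinases, which start glycolysis, Hk2 rose from 660.0 and 669 to 2104, 2504 and 2377 (log2 fold change 1.80 ± 0.10 (SE), limma adjusted p = 4.51e-06) and Hk3, of white blood cells, rose from 90.1 and 43.8 to 2516, 2369 and 4070.3 (log2 fold change 5.50 ± 0.31 (SE), limma adjusted p = 3.97e-06). Slc16a3, which exports lactate, had 2.89. Pdk4, which turns off pyruvate oxidation, was not called (log2 fold change -0.93 ± 0.63 (SE), limma adjusted p = 0.236), and Pfkm had -3.02 (limma adjusted p = 0.0175) but was not called without Unop 1 or Unop 2 (limma adjusted p = 0.0769 and 0.0873).

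Transcripts of the mitochondrial genome were lower. Of its 13 protein-coding genes, 11 (84.6%) were lower and none was higher, with a median of -1.47. Mt-nd1, of complex I, fell from 492494 and 380975 to 122522, 100937 and 113428 (log2 fold change -1.95 ± 0.27 (SE), limma adjusted p = 0.000432), and Mt-nd2, Mt-atp8 and Mt-nd4l had -2.05, -2.02 and -1.78. Mt-co1, of complex IV, was at 1657119 and 1638366 and 903400.0, 778395 and 827941 and was not called (log2 fold change -0.98 ± 0.48 (SE), limma adjusted p = 0.114). Its groups did not overlap. No alternative run on this gene called it, with log2 fold changes between -1.04 and -0.93, and its adjusted p depended strongly on the fit. The subunits encoded in the nucleus were lower in 3 of 40 tested and higher in none, with a median of -0.38, and 5 were lower without Unop 2. With all libraries, the lower subunits were 7.50% of those tested, under the 16.0% of all genes tested. Cox7a1, of muscle and fat, had -3.06, Ndufv2 -1.39 and Ndufb10 -1.03, the last of which was not a DEG without PEG 2 (-0.99) or Unop 1 (-0.88). Cox4i2 was not called (log2 fold change 0.77 ± 0.21 (SE), limma adjusted p = 0.0142), nor was Ndufa4 (log2 fold change -0.72 ± 0.25 (SE), limma adjusted p = 0.0371), which was without Unop 2 (-1.01, limma adjusted p = 0.0287).

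Of the signalling pathways, Hedgehog was lower in 5 of 17 tested genes (29.4%) and higher in 3 (17.6%), with a median of -0.34. Among all genes tested, 16.0% were lower and 16.7% higher, so the rises were near that share. Dhh (desert hedgehog), by which Schwann cells organise the perineurium, fell from 5073 and 5878 in the Unop nerves to 1235, 1339.7 and 1334 in PEG-fused PNAs (log2 fold change -2.07 ± 0.19 (SE), limma adjusted p = 3.85e-05). Its receptor and target Ptch1 fell from 10326 and 9758 to 2432, 2344 and 2455 (log2 fold change -2.06 ± 0.18 (SE), limma adjusted p = 2.90e-05). The effector Gli1 was at 1917 and 1995 and 1084, 1039 and 1242, short of the fold change threshold (log2 fold change -0.81 ± 0.11 (SE), limma adjusted p = 0.000363). Hhip, an inhibitor, had -3.70 (limma adjusted p = 0.0183), and was not called without PEG 1, Unop 1 or Unop 2 (limma adjusted p between 0.056 and 0.0833). Disp1, which releases the ligand, and Scube1 had -2.52 and -2.14, while Scube3 rose from 17.2 and 15.01 to 158, 155 and 144 (log2 fold change 3.17 ± 0.24 (SE), limma adjusted p = 1.44e-05). Scube2 had 1.37, and was not called without Unop 1 (1.03, limma adjusted p = 0.0855).

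The Wnt pathway was lower in 13 of 39 tested genes (33.3%) and higher in 5, with a median of -0.36, and 2 were higher without Unop 2. With all libraries, the higher genes were 12.8% of the list, against 16.7% of all genes tested, where 16.0% were lower. The secreted inhibitor Sfrp5 fell from 38064 and 36902 to 558, 670.3 and 1051 (log2 fold change -5.68 ± 0.53 (SE), limma adjusted p = 4.51e-05), and Wif1, another inhibitor, fell from 123 and 148 to 20.4, 29.0 and 25.3 (log2 fold change -2.41 ± 0.32 (SE), limma adjusted p = 0.000309). Of the ligands, Wnt6 fell from 1348 and 1092 to 119.6, 136 and 117 (log2 fold change -3.28 ± 0.22 (SE), limma adjusted p = 9.00e-06), Wnt7b had -4.23, Wnt5a was not called (log2 fold change -0.45 ± 0.20 (SE), limma adjusted p = 0.0861), and Wnt9b had 0 reads in all 3 PEG-fused PNAs and was at least 11.7-fold lower in them. The receptor Lgr5 fell from 897 and 1315 to 52.8, 51.4 and 41.3 (log2 fold change -4.46 ± 0.34 (SE), limma adjusted p = 1.44e-05). Axin2, a common target, was at 347 and 313 and 187.2, 189.8 and 213, short of the fold change threshold (log2 fold change -0.74 ± 0.17 (SE), limma adjusted p = 0.0051).

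TGF-beta and BMP genes were lower in 12 of 35 tested (34.3%) and higher in 6, with a median of -0.46, and 7 were lower without Unop 1. With all libraries, the higher genes were 17.1% of the list, near the 16.7% of all genes tested, where 16.0% were lower. Tgfb1, the ligand of fibrosis and of repair Schwann cells, rose from 621 and 438 to 2158, 2075 and 2073 (log2 fold change 2.01 ± 0.16 (SE), limma adjusted p = 1.72e-05). Inhba (activin A) rose from 64.4 and 82.5 to 215, 358 and 254 (log2 fold change 1.87 ± 0.29 (SE), limma adjusted p = 0.000754), and Gdf15, a stress cytokine, rose from 39.7 and 16.3 to 365, 489 and 474 (log2 fold change 4.05 ± 0.33 (SE), limma adjusted p = 2.31e-05). The BMP inhibitor Chrdl1 fell from 6075 and 5949.8 to 901, 931 and 917 (log2 fold change -2.71 ± 0.21 (SE), limma adjusted p = 1.82e-05), and the ligands Gdf10, Bmp3 and Bmp6 had -4.01, -3.76 and -3.07. Bmp7 had -2.14 (limma adjusted p = 0.0066), and without Unop 1 it was not called (-1.93, limma adjusted p = 0.0544).

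Growth factors of nerve injury split, with 15 of 41 tested (36.6%) higher and 12 (29.3%) lower and a median of 0.26. Cntf, the ciliary neurotrophic factor that myelinating Schwann cells store, fell from 43505 and 41465 in the Unop nerves to 297, 294 and 267 in PEG-fused PNAs (log2 fold change -7.21 ± 0.16 (SE), limma adjusted p = 3.66e-07). Tgfa, a ligand of the EGF receptor, fell from 3615 and 5509.5 to 119, 104 and 108.8 (log2 fold change -5.33 ± 0.33 (SE), limma adjusted p = 6.16e-06), and Ntrk2, the receptor for Bdnf, fell from 4002 and 3925 to 390.2, 312 and 449 (log2 fold change -3.38 ± 0.28 (SE), limma adjusted p = 2.55e-05). The neuregulin receptor Erbb4 fell from 207 and 300.2 to 3.71, 4.67 and 6.57 (log2 fold change -5.41 ± 0.78 (SE), limma adjusted p = 0.000484), whereas Nrg1 (neuregulin 1), the ligand that drives myelination, rose from 34.3 and 23.8 to 86.2, 249 and 150.1 (log2 fold change 2.33 ± 0.45 (SE), limma adjusted p = 0.00245). Fgf5, a fibroblast growth factor, rose from 5.37 and 10.01 to 365, 578 and 196 (log2 fold change 5.37 ± 0.49 (SE), limma adjusted p = 4.00e-05). Igf1 had 1.07 (limma adjusted p = 0.00778) and fell short of the threshold without PEG 3 (0.99) or without Unop 2 (0.70).

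Transcripts of neurons reach a nerve inside axons or belong to Schwann cells that share them, and 14 of 21 tested (66.7%) were lower while 1 was higher, with a median of -2.10. The number of higher genes was 2 without PEG 3. Sncg (gamma synuclein) fell from 68538 and 54543 in the Unop nerves to 1463, 1443 and 2386 in PEG-fused PNAs (log2 fold change -5.16 ± 0.32 (SE), limma adjusted p = 6.17e-06). Sncg made up most of the summed list in Unop nerves. That sum was 95610 and 85109 there and 26434, 32787 and 27450 in PEG-fused PNAs. The lower sum in PEG-fused PNAs rests on this gene, since without Sncg the PEG-fused and Unop sums overlapped. Stmn3, a regulator of microtubules, fell from 1851 and 1757 to 9.27, 2.80 and 9.38 (log2 fold change -7.93 ± 0.53 (SE), limma adjusted p = 7.91e-06), and Snap25, of synaptic vesicle release, from 168 and 151 to 0.927, 1.87 and 1.88 (log2 fold change -5.998 ± 0.65 (SE), limma adjusted p = 9.94e-05). The neurofilament genes were uneven among the grafts, with PEG 3 highest in Nefl and Nefm. Nefm was at 747 and 879 in the Unop nerves, 314, 287 and 607 in PEG-fused PNAs and 132, 33.3 and 75.2 in NC PNAs. It was not called against Unop nerves (log2 fold change -1.09 ± 0.53 (SE), limma adjusted p = 0.11) except in a fit of the PEG-fused and Unop libraries alone (-1.09, limma adjusted p = 0.0207), and it had 2.44 over NC PNAs (limma adjusted p = 0.00744). Nefl was at 449.7 and 420.2 and 61.2, 86.0 and 234 (log2 fold change -2.01 ± 0.55 (SE), limma adjusted p = 0.013), and was not called without Unop 1 (-1.96, limma adjusted p = 0.0715) or without Unop 2 (-2.06, limma adjusted p = 0.0609). Nefh and Prph had -3.94 and -3.74, and Kif5c, a motor of axonal transport, had -3.54.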

How the data were processed

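Poly-A RNA of 8 nerves (3 with PEG-fused PNAs, 3 with NC PNAs, 2 Unop) was sequenced from TruSeq stranded libraries. Per the labels and the study's methods, the authors aligned reads with TopHat2 to Rnor_6.0, counted reads per gene with HTSeq and divided them by DESeq2 median-of-ratios factors. The deposited values are this normalized signal, and whole reads were recovered from 100% of values above 0 within a tolerance of 0.001. Whether HTSeq counted by strand is not given in the sources used here, so overlapping antisense genes cannot be told apart. Single-library count files repeat the table, and deposited files with the authors' own fold changes and p-values were not used.

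Of 32545 genes, 16022 passed the filter on low counts. They were compared by limma 3.58.1 (R 4.3.3) with a trended prior on log2(normalized count + 1) in one fit of all 8 libraries. Standard errors and p-values rest on the spread inside all 3 groups, NC PNAs included, drawn toward that trend. They do not measure the spread of the 5 compared libraries alone. Among genes with a mean of at least 100 in the group, 3.13% to 5.56% differed more than 2-fold between 2 NC PNAs. The share was 1.32% to 2.30% between PEG-fused PNAs and 1.66% between Unop nerves. The 43 gene lists held 1065 symbols, of which 1023 were in the table and 960 were tested. Of the tested genes, 8 had no symbol, 56 symbols stood on several identifiers and 22 had been turned into dates by a spreadsheet. Where a symbol had several identifiers, the one with the highest mean count stood for it in a list. The text names the 10 largest rises and falls with a mean of at least 100, a set of core genes per list whether called or not, and up to 4 further members with the largest changes in each list. A few genes that this rule names are not reported here. These lists and the comparison itself were chosen with earlier results of these data known. Counting intervals and floors cover counting error only. Alternatives were edgeR 4.0.16 and DESeq2 1.42.0 on recovered reads, other scalings, pseudocounts (8) and filters (none, 50), the 5 libraries alone, other fold change rules and the replicate number as a block. Each of the 5 PEG-fused and Unop libraries was also left out in turn, but no NC library was. The fits were tested on simulated data. Promoter windows came from RefSeq (GRCr8), which held 781 of 1072 listed symbols, and no coordinates of the counting build were used.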

Additional observations from a re-analysis of the deposited data

How the results depend on the processing

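The number of DEGs depended most on the fold change rule. With no fold change threshold 4736 genes were higher and 4724 lower, and by a limma test against a log2 fold change of 1 (treat) 1483 were higher and 1364 lower. The other settings stayed within 1.5 times the main counts: edgeR called 2705 higher and 2557 lower, DESeq2 2650 and 2539, TMM scaling 2725 and 2508, a pseudocount of 8 gave 2482 and 2477, no filter 3011 and 2928, a filter of 50 gave 2208 and 2197, and the PEG-fused and Unop libraries alone 2678 and 2665. Leaving out 1 PEG-fused or Unop library at a time, 2529 to 2647 genes were higher and 2346 to 2486 were lower. Over all lists together, 294 to 331 members were then higher and 234 to 255 lower (325 and 257 with all libraries). Leaving a Unop nerve out assumes that the other one varies like the grafts. By the treat test, 232 list members were higher and 185 lower. Those higher were then 2 interferon-induced genes (10 in the main fit), 6 of antigen processing and presentation (14), 5 interstitial collagens (12) and 9 chemokines (17). Of the mitochondrial genome, 5 were lower (11 in the main fit).

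PEG-fused and Unop libraries share replicate numbers for 2 pairs only, and no source says that a number marks a shared animal or day. The deviations of same-numbered libraries correlated at 0.159 (PEG 1) and 0.140 (PEG 2) across genes. With 2 Unop nerves, their deviations are equal and opposite. The same grafts thus had -0.159 and -0.140 with the other Unop nerve, and these values do not show pairing. With the replicate block, 2619 genes were higher and 2513 lower. Of the named genes, Irf7 and Cdkn1c were called only with it among these 2 fits, and Col1a1, Col4a5, Igf1, Myh7 and Myh8 only without it.

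Of 282 called genes chosen by the naming rule, 263 kept the call in every alternative run on them, 19 lost it in at least 1 and none changed sign. The other filters, the rule with no threshold and the treat test were not run on these genes. The naming rule favours large changes, so the share kept does not describe all DEGs. Signs turned only in genes that were not called, and the cause was not tested. Cxcl14 had a log2 fold change of 0.042 by edgeR and 0.024 by DESeq2. Without single libraries, the range was -0.30 to 0.29 for Cxcl14, -0.26 to 0.77 for Cxcl13, -0.18 to 0.32 for Spp1, -1.77 to 0.57 for Acta1 and -2.78 to 0.47 for Ckm. Of 1320 list counts, 1239 stayed within 1.5 times. Genes with few reads and the pair of Unop nerves limit the precision. In 17 lists limma called no member in 1 direction against Unop nerves. There edgeR and DESeq2 also called 0, as did limma at an unadjusted p under 0.05 with the fold change threshold, and without the threshold this p held for 0 to 4 members per list.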
